A study of Mus musculus with 14 samples.

Results

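The 6 XY lines of a panel of 14 hybrid mouse embryonic stem (ES) cell lines were compared by the direction of the cross that produced them. In the BC cross the mother was C57BL/6J and the father CAST/EiJ, and in the CB cross the strains of the parents were exchanged. BC XY (BCM) and CB XY (CBM) were each represented by 3 lines, every line grown from 1 blastocyst, so that a line is a culture of its own, and no line carried a transgene or received a treatment. All were kept in serum with LIF on mouse embryonic fibroblast feeders, which the methods describe as removed in 2 steps before RNA was taken. The rule for genes was a value of 10 or more in at least 3 of the 6 lines, which 15354 of 23298 genes met. Of these, 4 were listed at 0 in a whole group and at 100 or more in the other and are described apart, which left 15350 genes for testing.

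Reciprocal crosses are designed to hold most of the genome constant. By descent, an XY line of either cross receives every autosome in 1 copy from each strain. The X comes from the mother, the Y from the father and the mitochondrial genome from the mother. By this design the X is C57BL/6J in BC XY and CAST/EiJ in CB XY lines, and the Y the reverse. Whether each line kept this complement was not tested. Some Y-linked genes were low, and genes of some autosomes stood apart, in some lines labelled CB XY, as described below. Imprinted genes, which are expressed from the copy of 1 parent, change the strain of their active copy with the cross. No mitochondrial gene was analysed here.

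Each value is a read signal per gene after scaling by the authors, and the sums of the 6 lines ran from 28421933 to 30122093. In these lines 98.1% to 98.5% of the low values were whole multiples of 1 step (to within 0.02 of a step), and if a step is 1 read, the BC XY lines held 24116148, 35516844 and 43773320 reads and the CB XY lines 14662572, 11903761 and 21892684. Depth was thus lower in each CB XY line than in each BC XY line. A value at or under 3 steps, which is 2.01 to 7.37 depending on the line, cannot be told from 0. The methods describe libraries made in batches but the labels do not assign lines to them, so that cross and batch cannot be told apart. P-values measure the spread between lines.

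Y-linked genes were read first as a check of the labels. *Uty*, a histone demethylase gene of the Y, read 2088, 1529 and 945 in BC XY and 1149, 19.6 and 45.4 in CB XY lines. *Ddx3y*, an RNA helicase gene, had 2268, 1397 and 1115 against 1084, 27.0 and 126. Lines 2 and 3 labelled CB XY lay near the 2 XO lines of the BC cross, at 15.2 and 30.6 for *Uty* and 101 and 102 for *Ddx3y*, and apart from CB XY 1. Lines without a Y by their labels were not all low, since *Ddx3y* ran from 328 to 1024 in BC XX and from 49.7 to 196 in CB XX lines. *Uty* was lower in these lines, at 66.1 to 195 in BC XX and 12.8 to 57.8 in CB XX lines. Summed over the 10 Y-linked genes listed, the values were 4657, 3151 and 2159 in BC XY lines, and 2347, 61.4 and 228 in CB XY lines, beside 533 to 1659 in BC XX and 85.3 to 332 in CB XX lines.

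**Figure D1:**
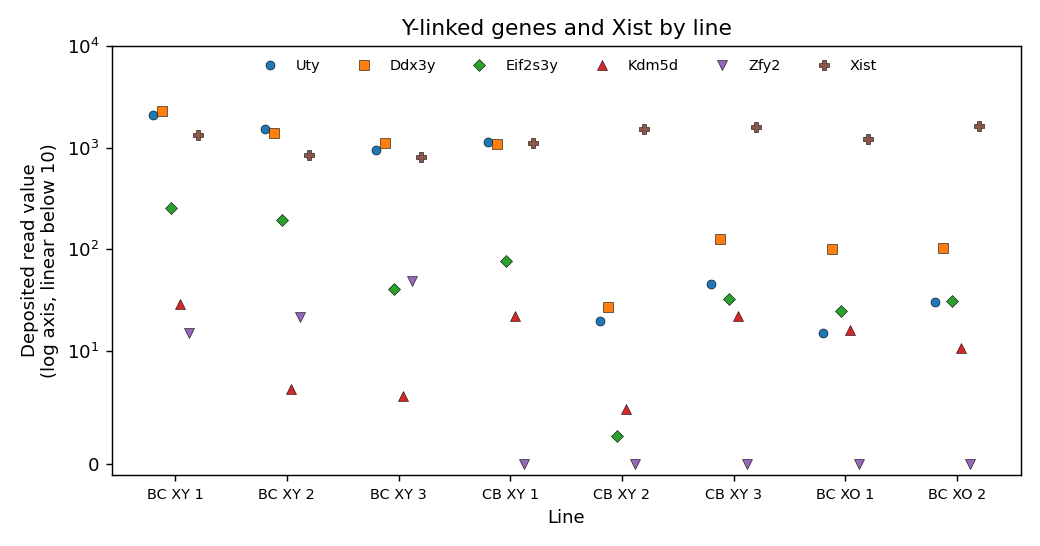
Values of 5 Y-linked genes and *Xist* (vertical axis, deposited read value, logarithmic above 10) in the 6 XY lines and the 2 BC XO lines (horizontal axis), 1 point per gene and line. *Uty* and *Ddx3y* are high in the BC XY lines and CB XY 1 and low in lines 2 and 3 labelled CB XY, while *Xist* lies between 801 and 1650 in all 8 lines.

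*Eif2s3y*, which encodes a translation initiation subunit, had 255, 195 and 40.8 against 76.7, 2.46 and 32.5, so that the groups overlapped. *Kdm5d*, a further demethylase gene, had 28.7, 6.65 and 6.02 against 22.2, 4.91 and 22.1, and was higher in every BC XX line (36.9 to 123) than in any BC XY line. *Zfy2*, a zinc finger gene, was the 1 Y-linked gene of 5 tested that differed, with 14.99, 21.6 and 48.9 in BC XY and 0 in each CB XY line (adjusted p = 0.0149), also in CB XY 1, which carried *Uty* and *Ddx3y* RNA. Without lines 2 and 3 labelled CB XY, its adjusted p was 0.288. *Sry*, *Ssty1*, *Ssty2*, *Usp9y* and *Zfy1* did not pass the rule, with values of 10.1 or less in every line. *Xist*, the noncoding RNA that coats an inactive X, had values of 1343, 841 and 801 in BC XY lines and 1113, 1515 and 1611 in CB XY lines, which overlapped (log2 fold change −0.53, adjusted p = 0.268). *Tsix*, its antisense partner, had 184, 116 and 100 against 220, 187 and 161 (adjusted p = 0.351), and of the 6 genes of the X inactivation centre 0 were called.

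The lines expressed the genes that define ES cells. *Pou5f1* had 26655, 22607 and 17312 in BC XY against 25866, 19818 and 20945 in CB XY lines, a log2 fold change of −0.01 (standard error 0.19), and *Nanog* and *Zfp42* had −0.12 and 0.01. The other ES cell markers chosen leaned to CB XY. *Sall4* and *Esrrb* had −0.51 and −0.44 and were not called, and *Sox2*, described below, had −0.65 and was called. RNA of feeder genes was also present in all 6 lines. The 32 feeder and mesenchymal genes summed to 60606, 30272 and 27343 in BC XY and 51246, 20739 and 58311 in CB XY lines. Of 31 tested, 0 were called (2.53% of all genes were), and 3 had lines that did not overlap (27.6% of all genes did not). Their median log2 fold change was −0.21. Among other defining markers, *Gata6* ranged from 85.0 to 140 in BC XY and from 31.9 to 168 in CB XY lines, and *T* from 303 to 2126 and from 418 to 1933, and neither was called.

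By limma, with p-values adjusted over every gene tested by the Benjamini-Hochberg method (as are all adjusted p-values here), 388 of 15350 genes (2.53%) differed between BC XY and CB XY lines at an FDR of 0.05. Higher in CB XY lines were 350 (2.28% of genes tested) and higher in BC XY lines 38 (0.248%). The lines of the groups did not overlap at 4237 genes (27.6% of genes tested), which included all 388. At an FDR of 0.01 there were 110, with 106 higher in CB XY, and 2994 genes had an unadjusted p below 0.05. The median log2 fold change, given throughout as BC minus CB on the scale of log2(value + 5), was 0.01 over all genes. With CB XY 1 as the only CB XY line the count was 59 (0.384%, 52 of them among the 388), where the lone line is assumed to vary like the others, and all 388 genes kept the sign of their difference. Leaving out lines could not change these signs, because the groups did not overlap at any of the 388 genes, so the kept signs say nothing about stability. The count of called genes was 137 without BC XY 2, 124 without CB XY 1, 165 without CB XY 2 and 122 without CB XY 3.

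Structural RNAs that are not polyadenylated stood among the genes higher in CB XY lines. *Rpph1*, the RNA of RNase P, which trims the 5′ ends of tRNA precursors, read 51727, 53258 and 43371 in BC XY and 365752, 216926 and 222463 in CB XY lines. The groups lay far apart, with the mean 5.43 times higher in CB XY (log2 fold change −2.40, standard error 0.22, adjusted p = 0.00108). *Rmrp*, the RNA of the related RNase MRP, which acts in the maturation of ribosomal RNA, had 41860, 64201 and 61900 against 257808, 157074 and 137503, a mean 3.29 times higher in CB XY (log2 fold change −1.69, standard error 0.27, adjusted p = 0.0169). Without lines 2 and 3 labelled CB XY *Rpph1* kept its call (adjusted p = 0.0198) and *Rmrp* did not (adjusted p = 0.0563). With all 14 lines in 1 model neither was called (adjusted p = 0.0878 and 0.115).

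*Terc*, the RNA template of telomerase, had 974, 877 and 842 against 5081, 2417 and 3341 (log2 fold change −1.94, adjusted p = 0.00611). *Scarna2*, a guide RNA of Cajal bodies, had 342, 292 and 299 against 2300, 1341 and 1755 (log2 fold change −2.48, adjusted p = 0.000744). The small nucleolar RNAs *Snord55* and *Snord49b*, which guide the modification of ribosomal RNA, had log2 fold changes of −2.46 and −1.58 (adjusted p = 0.00359 and 0.0287), and the BC XY values of *Snord55* lie within 3 steps of 0, so that its fitted change depends on the pseudocount. These were the 6 members called among 71 tested of 122 listed structural RNAs, all higher in CB XY as were 2.28% of all genes, with a list median of −0.17 beside 0.01 for all genes. *Rprl3*, a copy related to *Rpph1* and outside the list, was looked at after its values were seen and had 1499, 2003 and 1622 against 19256, 20054 and 11725. The listed RNAs made up 0.374%, 0.454% and 0.418% of the summed values in BC XY lines and 2.21%, 1.35% and 1.34% in CB XY lines. Most of each sum came from *Rpph1* and *Rmrp*, so that the shares largely repeat their differences. In CB XY 1 the list summed to 653712, beside 365752 for *Rpph1* and 257808 for *Rmrp*. Depth, and the base composition of the RNA described below, moved with the same lines, and their part in these differences was not tested.

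**Figure D2:**
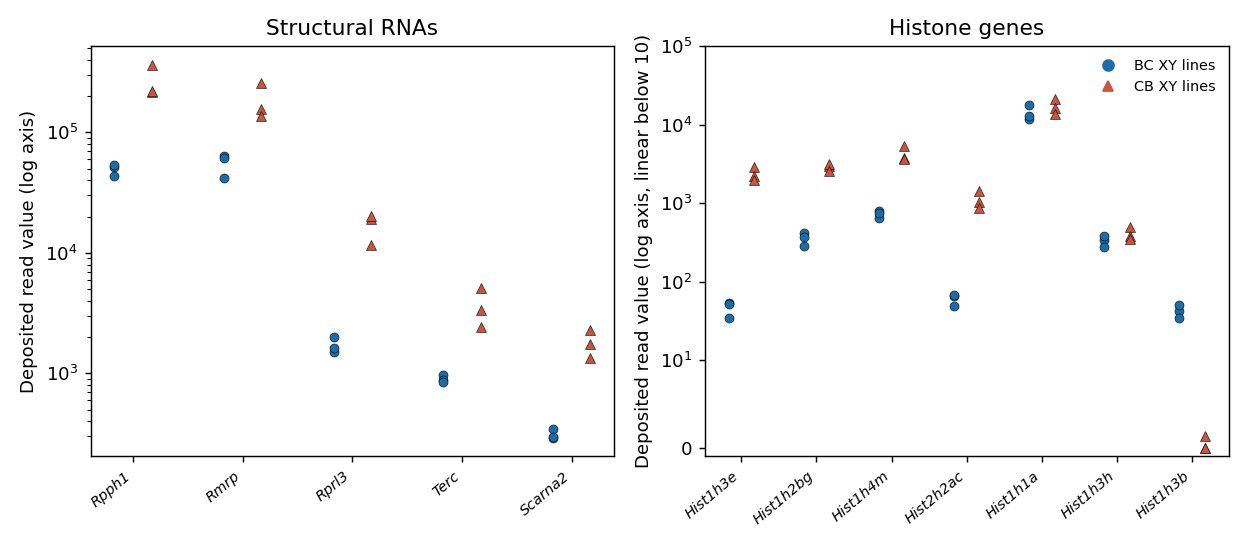
Deposited read values (vertical axes, logarithmic, with a linear part below 10 at right) of 5 structural RNAs and 7 histone genes (horizontal axes), with 1 point for each of the 3 BC XY and 3 CB XY lines. *Rpph1* and *Rmrp* lie at 137503 or more in every CB XY line and at 64201 or less in every BC XY line, the 4 histone genes at left are higher in CB XY lines, *Hist1h1a* and *Hist1h3h* overlap, and *Hist1h3b* is near 0 in CB XY lines.

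Genes for replication-dependent histones were the list with most calls. These genes are transcribed in S phase to package new DNA, and their mRNAs end in a stem-loop in place of a poly(A) tail. Of 67 listed, 60 were tested. Higher in CB XY lines were 41 (2.28% of all genes were), 1 was higher in BC XY lines (0.248% of all genes were) and 18 were not called. The median log2 fold change was −1.68, beside 0.01 for all genes. The lines did not overlap at 48 of the 60, beside 27.6% of all genes. Without lines 2 and 3 labelled CB XY, 22 were called. By type, 11 of 13 H2A, 10 of 17 H2B, 8 of 12 H3, 10 of 12 H4 and 2 of 6 H1 genes were higher in CB XY, with medians of −2.21, −1.27, −1.94, −1.70 and −0.47.

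The stem-loop that replaces the poly(A) tail was searched for as a perfect stem of 6 bases that starts with GG, around a loop of 4 bases that starts with TT, in the last 100 bases of the longest coding transcript of each gene (mm9, GENCODE annotation, transcript strand only). It was found in 27 of 19567 transcripts (0.138%), of which 26 were histone genes of the list of 67. *Hist1h3e* and *Hist1h2bg* were not among them. The search depends on the annotated end of the transcript and on a perfect stem. A gene without a match is therefore not shown to lack the element. Of the 26 histone genes found, 22 were tested. Higher in CB XY lines were 14 (2.28% of all genes were), 1 was higher in BC XY lines and 7 were not called. The sequences below show that members with large, small and opposite differences end in the same or nearly the same stem-loop, with the loop in capitals, read 5′ to 3′ on the transcript.
Hist1h2ag (chr13:22134352-22134367, minus strand): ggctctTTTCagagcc
Hist1h3h (chr13:21809964-21809979, plus strand): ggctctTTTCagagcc
Hist1h3b (chr13:23844689-23844704, plus strand): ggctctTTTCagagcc
Hist1h3c (chr13:23836916-23836931, minus strand): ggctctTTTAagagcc
Hist1h4m (chr13:21903998-21904013, plus strand): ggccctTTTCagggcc
Hist1h4b (chr13:23849235-23849250, plus strand): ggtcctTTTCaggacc
Hist2h2ac (chr3:96024341-96024356, minus strand): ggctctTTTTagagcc

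*Hist1h2ag*, which encodes an H2A, had a log2 fold change of −2.21, whereas *Hist1h3h*, which encodes an H3 and carries an identical 16-base element, had 343, 276 and 380 against 493, 378 and 347 (log2 fold change −0.28, adjusted p = 0.536). *Hist2h2ac*, an H2A gene of chromosome 3, had 64.9, 68.2 and 48.9 against 1426, 1049 and 876 (log2 fold change −4.08, adjusted p = 0.000143). *Hist1h4m*, an H4 gene, had 644, 785 and 759 against 5344, 3787 and 3693, a mean 5.86 times higher in CB XY. *Hist1h1a* and *Hist1h1e*, both for linker histones and both with the commonest stem-loop, were not called (log2 fold changes −0.28 and −0.55).

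The largest histone difference was at *Hist1h3e* (chromosome 13, 23653403 to 23654238), which encodes an H3, with 34.97, 54.0 and 52.2 in BC XY against 2846, 2193 and 1964 in CB XY lines. Its log2 fold change was −5.49 (standard error 0.24, adjusted p = 2.67e-05). *Hist1h2bg*, an H2B gene, had 287, 417 and 371 against 2999, 3186 and 2592 (log2 fold change −3.02, adjusted p = 0.00014). *Hist1h3b*, the member higher in BC XY lines, had 42.5, 34.1 and 50.2 against 0, 0 and 1.30 (fitted log2 fold change 3.12, which depends on the pseudocount since the CB XY values are within 3 steps of 0, adjusted p = 0.00122). Histone genes of 1 type have nearly identical coding sequences, so that the assignment of reads among them is uncertain, and the 9 *Hist1h3* genes together summed to 4095, 4396 and 4983 in BC XY and 20505, 18968 and 15219 in CB XY lines. Histone genes made up 0.221% to 0.246% of the summed values in BC XY and 0.45% to 0.604% in CB XY lines.

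The difference between the crosses varied with base composition. For 90.3% of the tested genes a GC content was available, and the median GC content of the longest coding transcript was 50.7%. Called genes higher in CB XY had a median of 60.6% and those higher in BC XY of 44.1%. The median log2 fold change went from 0.33 in 618 genes of at most 40% GC through −0.03 in 3673 genes of 50% to 55% to −1.32 in 66 genes above 65%. In that last range 31 of 66 genes (47.0%) were called, all of them higher in CB XY. Without the histone genes, its median was −1.21. By line, the median deviation of genes above 60% GC less that of genes under 45% GC was −0.40, −0.20 and −0.27 in BC XY and 1.00, 0.71 and 0.66 in CB XY lines, on the log2 scale against the mean of the 14 lines of the series.

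**Figure D3:**
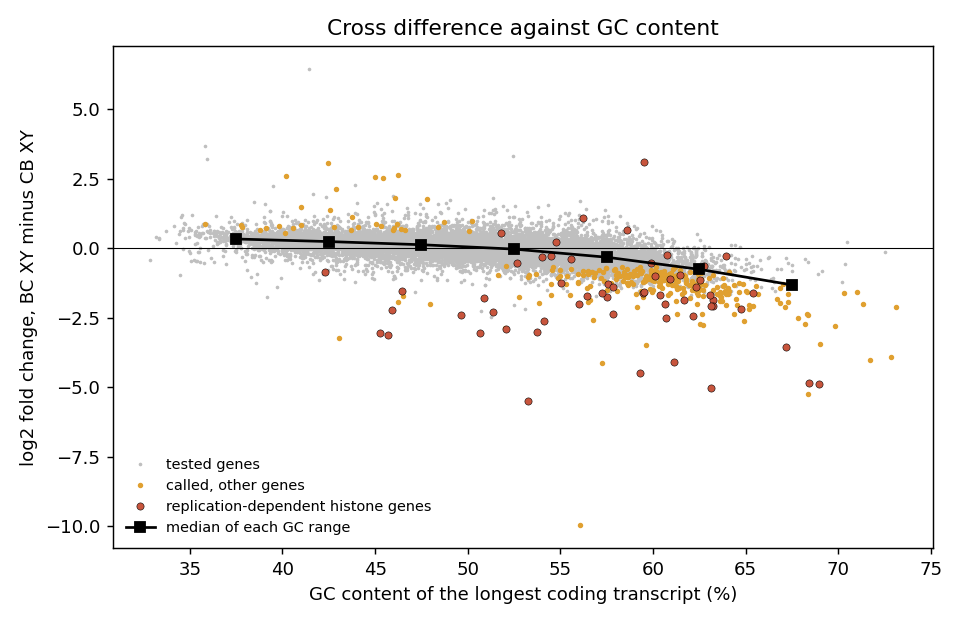
Log2 fold change of BC XY over CB XY lines (vertical axis) against the GC content of the longest coding transcript in percent (horizontal axis), 1 point per tested gene, with called genes and histone genes coloured. Black squares are medians of GC ranges and fall from 0.33 to −1.32, and most histone genes lie below them.

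Each line was then corrected for its median deviation in 20 bins of GC content, an alternative chosen after the data were seen. The bins held near equal numbers of genes, so that genes from about 60% GC upward shared the richest bin and the same shift. Their median log2 fold change was −0.76 at 60% to 65% GC and −1.32 above 65%. The correction did not remove the gradient within this bin, which limits what it shows for the genes richest in GC. Of 13863 genes with a GC value 65 were called (0.469%), with 54 higher in CB XY and 11 higher in BC XY, and 57 of the 65 were among the 388. Of the 65, 31 were histone genes, and over the 58 histone genes with a GC value the median was −1.16 with 30 higher in CB XY. The structural RNAs have no coding transcript and could not be corrected. What produced the gradient was not tested.

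On the autosomes 367 of 14790 genes (2.48%) were called, of which 342 were higher in CB XY. *Scand1* (chromosome 2), which encodes a SCAN domain protein, had 7.49, 9.14 and 4.68 against 608, 391 and 379, a log2 fold change of −5.24. It was −4.40 after GC correction (adjusted p = 0.000366), where its GC content of 68.4% falls in the richest bin. In XX lines *Scand1* read 10.7, 6.51 and 6.88 in the BC cross and 358, 342 and 6.22 in the CB cross.

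Among pluripotency genes 2 were called. *Sox2* (chromosome 3, 34548927 to 34551383), a core pluripotency factor, had 7210, 7877 and 7416 in BC XY and 12344, 11661 and 11422 in CB XY lines, so that the lines did not overlap, and it was 1.57 times higher in CB XY (log2 fold change −0.65, standard error 0.12, adjusted p = 0.0268). After GC correction the log2 fold change was −0.63 (adjusted p = 0.0663), and without lines 2 and 3 labelled CB XY it was −0.72 (adjusted p = 0.402). *Klf2*, a factor of the naive state, had 1434, 1851 and 2705 against 7266, 5401 and 5488 (log2 fold change −1.63, adjusted p = 0.0113), and −0.79 after correction (adjusted p = 0.285). These were 1 of 4 core and 1 of 16 naive genes tested, beside 2.53% of all genes, with list medians of −0.31 and −0.31. *Ier2*, an immediate early gene, was the 1 called of 19 FGF and ERK targets, with 1369, 1408 and 1236 against 5435, 3925 and 3284 (log2 fold change −1.62), and −0.78 after correction (adjusted p = 0.142).

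The counts for large housekeeping complexes stand beside 2.53% of all genes called. Of 76 ribosomal protein genes *Rpl36* was higher in CB XY (5888, 5732 and 6003 against 16688, 11932 and 11982) and *Rps23* higher in BC XY (25906, 21214 and 22535 against 15860, 14778 and 14571), with a list median of 0.23. Of 84 oxidative phosphorylation genes 1 was called, *Atp5d*, with a list median of 0.10. After GC correction none of the 3 was called, with *Rps23* going from 0.62 to 0.57, *Rpl36* from −1.19 to −0.34 and *Atp5d* from −0.68 to −0.14. In that fit 3 other ribosomal protein genes were higher in BC XY, *Rpl28*, *Rpl38* and *Rps15*, with log2 fold changes of 0.95, 0.86 and 0.85. Before correction their log2 fold changes were 0.10, 0.32 and 0.01, and none was called (adjusted p = 0.743, 0.286 and 0.986). Their difference therefore arose largely from the correction.

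Autosomal genes higher in BC XY lines numbered 25. *Spink3*, which encodes a serine protease inhibitor, had 127, 191 and 344 against 40.4, 14.7 and 42.8 (log2 fold change 2.58, adjusted p = 0.026). *Slc39a8*, a metal ion transporter gene, had 142, 236 and 266 against 84.8, 39.3 and 51.9 (log2 fold change 1.80). *Slc40a1*, which encodes the iron exporter ferroportin, had 1033, 1165 and 815 against 370, 506 and 514 (log2 fold change 1.11, adjusted p = 0.0324). *Dsc2*, a desmosome gene, and *Grhl2*, an epithelial transcription factor gene, had 1.38 and 0.97. None of these 5 was called after GC correction, where their log2 fold changes in this order were 2.38, 1.64, 0.88, 1.14 and 0.91, or without lines 2 and 3 labelled CB XY, where they were 2.20, 1.24, 1.41, 1.46 and 0.68.

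The X chromosome is by design of opposite strain in the groups, and 18 of 539 X-linked genes (3.34%) were called. Reads of both strains were aligned to mm9, and whether they aligned equally well was not tested. A difference in alignment cannot be told apart from one in expression here. Of the 18, 12 (66.7%) were higher in BC XY, beside 6.81% of the called autosomal genes, and the difference between these shares was not tested. That majority did not hold under several alternatives. Called higher in BC XY and in CB XY were 2 and 5 X-linked genes after GC correction, 2 and 4 at an FDR of 0.01, 5 and 9 with an untrended prior, 7 and 8 without a filter and 5 and 6 with all 14 lines in 1 model. When 1 line was left out they were 3 and 6 (BC XY 2), 5 and 6 (BC XY 3), 3 and 4 (CB XY 1) and 2 and 4 (CB XY 2). *Ptchd1* (X, 152007998 to 152058357), which encodes a patched-domain membrane protein, had 1178, 1078 and 1592 in BC XY and 139, 206 and 347 in CB XY lines, a mean 5.56 times higher in BC XY (log2 fold change 2.53, standard error 0.32, adjusted p = 0.00589). It was also called after GC correction (2.33, adjusted p = 0.0161) and without lines 2 and 3 labelled CB XY (3.14, adjusted p = 0.0278). *4933402E13Rik* had 99.9, 152 and 212 against 12.1, 9.82 and 19.5 (log2 fold change 3.06, adjusted p = 0.00365). *Egfl6*, which encodes a secreted protein with EGF-like repeats, had 194, 178 and 127 against 14.1, 12.3 and 57.1 (log2 fold change 2.62, adjusted p = 0.0303).

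Melanoma antigen (Mage) genes, a family with members largely confined to the germ line, gave 2 called genes of 10 tested, both higher in BC XY, beside 3.34% of X-linked genes called. After GC correction 0 of 9 were called. *Mageb16* had 777, 880 and 833 against 101, 152 and 409 (log2 fold change 2.13, adjusted p = 0.0423), and *Magee2* had 44.96, 54.9 and 77.0 against 8.08, 17.2 and 15.6 (log2 fold change 1.79, adjusted p = 0.0323). The family median was 0.21. *Eif2s3x*, the X-linked counterpart of *Eif2s3y*, had 23928, 19742 and 18220 against 11552, 10780 and 13886 (log2 fold change 0.77, adjusted p = 0.0429). It was the 1 called of 8 genes with a Y-linked counterpart, whose median was 0.19. *Mum1l1*, *6720401G13Rik*, *Fundc2*, *Acot9* and *Phf16* had log2 fold changes of 1.48, 1.01, 0.87, 0.79 and 0.78.

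The 6 X-linked genes higher in CB XY lines were led by *Pcsk1n* (X, 7496948 to 7501536), which encodes an inhibitor of a prohormone convertase, with 14.99, 14.1 and 17.4 against 273, 462 and 347. Its log2 fold change was −4.13 (standard error 0.28, adjusted p = 0.000222), −3.82 after GC correction and −3.76 without lines 2 and 3 labelled CB XY. In XX lines *Pcsk1n* read 27.4, 23.2 and 19.7 in the BC cross and 431, 329 and 27.5 in the CB cross, so that 1 CB XX line lay near the BC lines. *Xpnpep2*, an aminopeptidase gene, had 5.00, 2.49 and 2.01 against 46.4, 73.7 and 45.4 (fitted log2 fold change −2.87, which depends on the pseudocount since 2 BC XY values lie within 3 steps of 0). *Rhox6*, a homeobox gene of the reproductive cluster, had 294, 525 and 212 against 1153, 1353 and 1311 (log2 fold change −1.97, adjusted p = 0.0149), and was the 1 called of 4 *Rhox* genes tested. *Glod5*, *Sash3* and *Bex2* had log2 fold changes of −1.95, −1.77 and −1.28, that of *Sash3* with BC XY values of 1.25 to 3.33 and so with the same limit. After GC correction 7 X-linked genes were called, *Pcsk1n*, *Xpnpep2*, *Rhox6*, *Glod5*, *Bex2*, *Ptchd1* and *4933402E13Rik*. With CB XY 1 as the only CB XY line there were 4, which included *Pcsk1n*, *Ptchd1* and *Mageb16*, and the count was 9, 11, 7, 6 and 8 without BC XY 2, BC XY 3, CB XY 1, CB XY 2 and CB XY 3.

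**Figure D4:**
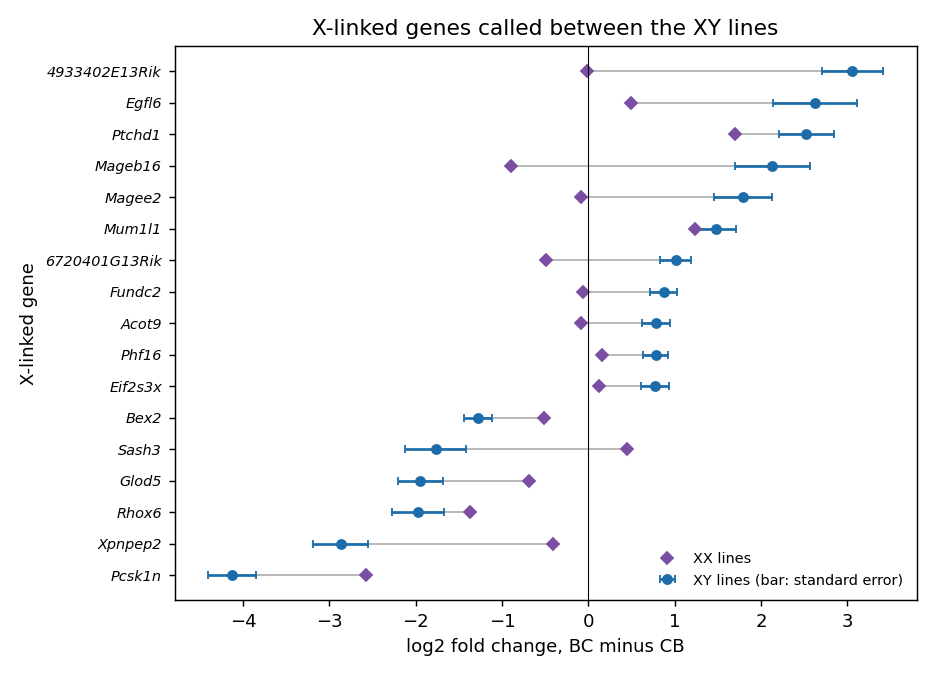
Log2 fold change of BC over CB lines (horizontal axis) for 17 of the X-linked genes called between the XY lines (vertical axis), circles with standard errors for XY lines and diamonds for XX lines. *Mum1l1* has an XX value (1.23) near its XY value (1.48), and *4933402E13Rik* and *Magee2* have XX values near 0.

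The same contrast was run in the XX lines, which share no line with the XY groups. There both crosses carry 1 X of each strain. Of the 18 X-linked genes 11 had the same sign in XX lines, and of the 343 autosomal genes called in XY lines and tested in XX lines 338 did, beside 68.7% of all 15041 genes tested in both. *Ptchd1* had a log2 fold change of 1.70 in XX lines, *Pcsk1n* −2.57, *4933402E13Rik* −0.02 and *Mageb16* −0.89, none of them called. The interaction, which tests whether the cross difference is unlike in XY and XX lines, gave adjusted p = 0.0951 for *4933402E13Rik*, 0.0876 for *Mageb16* and 0.0951 for *Xpnpep2*.

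Between BC XX and CB XX lines 79 of 15459 genes (0.511%) were called, 76 of them higher in BC XX, and 3451 had an unadjusted p below 0.05. The genes called in both contrasts were 3, which is 3.80% of the XX calls and 0.773% of the XY calls. The XX lines differed in feeder genes, which summed to between 144137 and 302973 in BC XX and between 26428 and 70438 in CB XX lines, with 7 of 32 called. For the genes called higher in CB XY, the median log2 fold change was −1.33 in XY and −1.13 in XX lines. *Rpph1* had 30199, 18317 and 4824 in BC XX and 280925, 193741 and 37324 in CB XX lines, so that 1 CB XX line lay close to the highest BC XX line. The same line, at −0.35, was the only CB line whose GC difference lay on the side of the BC XY lines, with the other 2 CB XX lines at 0.55 and 0.37. That line, CB XX 3, read 27.5 for *Pcsk1n* and 6.22 for *Scand1*, close to the BC XX lines. For *Rhox6* it read 1783, apart from 358 to 1041 in BC XX lines.

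The interaction of cross and sex chromosome complement was called for 2 of 15959 genes (0.0125%), with 1342 at an unadjusted p below 0.05. *Cnn2*, an actin-binding calponin gene, had 3398, 2999 and 2895 in BC XY against 3134, 2866 and 3167 in CB XY lines. In XX lines it was higher in the BC cross (log2 fold change 1.43), so that the interaction was −1.41 (adjusted p = 0.0404). With the feeder level as a covariate, 7 genes were called and 0 had a negative interaction, so that the call of *Cnn2* was not kept. The other of the 2 genes was *Atp6v0c-ps2*, described with the copies that share reads.

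Genes of 2 autosomes stood apart as a whole in some lines. Each gene was centred on the mean of the 6 lines and the median was taken per chromosome. Genes of chromosome 6 had medians of −0.11, −0.07 and −0.14 in BC XY and −0.17, 0.28 and 0.23 in CB XY lines, and those of chromosome 8 had −0.11, −0.10 and −0.06 against 0.32, −0.01 and −0.03. Against the mean of the BC XY lines, the medians were 1.30 and 1.24 times higher for chromosome 6 in lines 2 and 3 labelled CB XY and 1.31 times higher for chromosome 8 in CB XY 1. Chromosomes other than 6, 8 and X had medians between −0.07 and 0.11 in every line. Called genes on chromosome 6 were 21 of 751 (2.80%) and on chromosome 8 26 of 802 (3.24%), with 0 of the latter higher in BC XY.

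**Figure D5:**
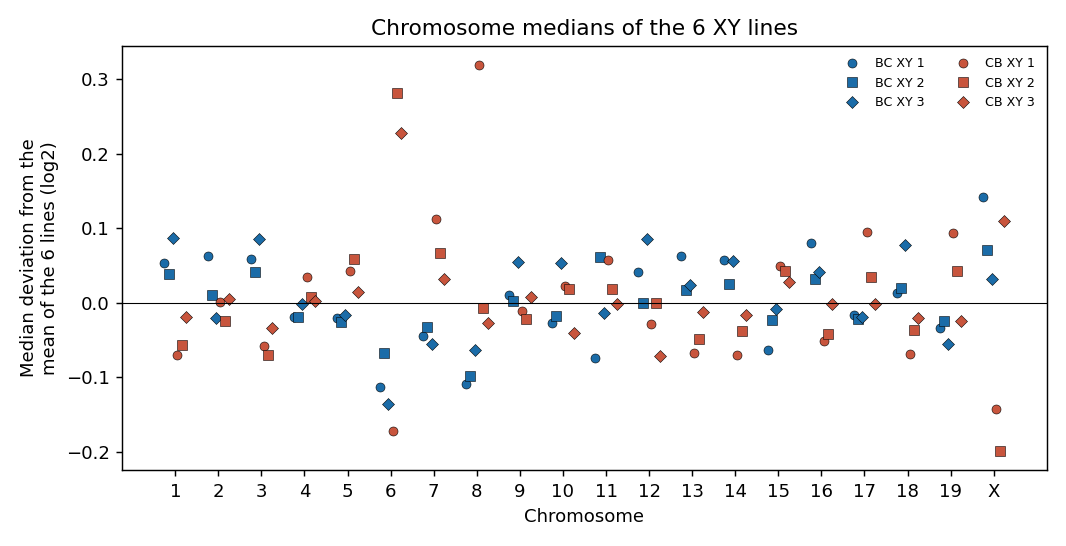
Median deviation of the genes of each chromosome from the mean of the 6 lines (vertical axis, log2) by chromosome (horizontal axis), 1 point per line. Chromosome 6 is raised to 0.28 and 0.23 in lines 2 and 3 labelled CB XY, and chromosome 8 to 0.32 in CB XY 1.

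For the X the medians by line were 0.14, 0.07 and 0.03 in BC XY and −0.14, −0.20 and 0.11 in CB XY lines, so that CB XY 3 lay within the BC XY range. The median log2 fold change of X-linked genes was 0.17, beside 0.00 for autosomal genes, and it ran from 0.10 without CB XY 2 to 0.28 without CB XY 3. X-linked genes had a median GC content of 46.2% and autosomal genes of 50.9%, and after GC correction the X median was 0.05. Among the autosomes and the X the highest share of called genes was on chromosome 13, with 41 of 578 (7.09%), which carries most of the histone genes.

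Imprinted genes were examined because the cross exchanges the strain of the expressed copy. Among 34 maternally expressed genes tested, 0 were called (2.53% of all genes were), 9 had lines that did not overlap (27.6% of all genes did not), and the median log2 fold change was −0.02. Among 36 paternally expressed genes 0 were called, 8 had lines that did not overlap, and the median was 0.06. *Meg3*, a maternally expressed noncoding RNA of chromosome 12, had 3754, 4200 and 2576 in BC XY and 5915, 6494 and 5651 in CB XY lines (log2 fold change −0.81, standard error 0.19, adjusted p = 0.0696). The paternally expressed *Rtl1* of the same locus had 523, 374 and 237 against 624, 782 and 681 (log2 fold change −0.94, adjusted p = 0.122), and *Dlk1* had 46.2, 50.7 and 40.2 against 137, 54.0 and 145 (log2 fold change −1.10, adjusted p = 0.169). *H19*, maternally expressed from chromosome 7, had 4014, 5619 and 3116 against 5483, 3885 and 5170. *Grb10*, an adaptor of growth factor receptors, and *Mest* had their lowest values in the line labelled CB XY 2, at 941 and 192, beside 4436 to 7967 and 2443 to 4074 in the other 5 lines. With total values, which copy was expressed cannot be read.

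In the other lists fixed for these cells 0 genes were called. These were 14 primitive streak, 16 primitive and visceral endoderm, 11 trophoblast, 4 two-cell-like, 12 DNA methylation and 18 interferon response genes, with medians of −0.14, 0.12, 0.35, 0.43, −0.08 and 0.13. In the trophoblast list *Krt18*, an epithelial keratin gene, came nearest, with 2710, 3061 and 5729 against 1795, 1061 and 1359 (log2 fold change 1.40, adjusted p = 0.0508). Among 19 germline genes silenced by methylation 1 was called, *Rhox6*. No *Xlr* gene of 12 passed the filter, which requires 3 lines. Summed, they had 23.7, 24.9 and 20.7 in BC XY and 10.1, 14.7 and 474 in CB XY lines, so that CB XY 3 stood apart. The sums were 753 to 1522 in BC XX, 326 to 3922 in CB XX and 11.4 to 15.2 in BC XO lines.

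*Atp6v0c*, which encodes a proton pump subunit, was listed at 0.02 to 0.07 in BC XY and at 5020, 5771 and 4544 in CB XY lines, while its pseudogene *Atp6v0c-ps2* had 1135, 3884 and 4232 against 0.15, 1.05 and 0.35. The gene and its near-identical copy were both called, in opposite directions. Summed, they had 1135, 3884 and 4232 against 5021, 5772 and 4545. In XX lines *Atp6v0c-ps2* had a log2 fold change of 1.64, and its interaction was 7.27 (adjusted p = 0.0404). *Oaz1-ps* was listed at 0, 0.12 and 0.62 in BC XY and at 3928, 3723 and 2476 in CB XY lines, whereas its parent *Oaz1*, an inhibitor of polyamine synthesis, had 8949, 7222 and 6682 against 7689, 4087 and 5852 and was not called. Values of such copies are uncertain, because reads can fit both.

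The 4 genes left out of the test read 0 throughout a group. *Eef1a1*, a translation elongation factor gene that every cell uses, was listed at 0 in the 3 BC XY lines and at 341246, 323968 and 320073 in the CB XY lines, and it was listed at 0 in the other 8 lines of the series as well. *Cdk8*, a kinase of the Mediator complex, was listed at 2080, 2082 and 1976 in BC XY lines and at 0 in the CB XY lines, while its values in the CB XX lines were 1782, 2075 and 1759. *Cmss1* and *Filip1l*, which overlap on chromosome 16, were listed at 918, 647 and 349 and at 358, 198 and 201 in BC XY lines and at 0 in CB XY lines. Zeros that covered whole groups occurred at 15 genes over the 14 lines (a value of 100 or more elsewhere), and no fold change is given for them.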

How the data were processed

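RNA of 14 ES cell lines had been sequenced, and the 3 BC XY and 3 CB XY lines were compared here. According to the methods, stranded total RNA libraries were read from 1 end, aligned to mm9 with TopHat2 and summarised with Cufflinks and Cuffdiff. The authors deposited 1 read signal per gene and line, scaled to a common depth. Members and gene lists were chosen with earlier results of these data known.

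Values were compared as log2(value + 5) with limma 3.58.1 in R 4.3.3, with a trended prior and Benjamini-Hochberg adjustment over all genes tested, at FDR thresholds of 0.05 and 0.01. Because the values are not whole reads throughout, no count model was used, although it had been planned. Symbols were placed on mm9 through GENCODE. Steps were tested on simulated data. Genes named were *Rpph1*, *Rmrp*, Y-linked and X inactivation genes, and the 10 largest autosomal and X-linked differences in each direction whose lines did not overlap. Called members of the lists (or up to 4 where none was) and genes at 0 in a group were also named. *Rprl3*, *Cnn2*, *H19*, *Oaz1*, *Gata6*, *T*, *Pou5f1*, *Nanog*, *Zfp42*, *Sall4* and *Esrrb* were added after their values were seen. So were *Hist1h1a*, *Hist1h1e*, *Hist1h3h*, *Rpl28*, *Rpl38* and *Rps15*. The largest differences are described by example and the called histones by type. XX lines of the CB cross are numbered by column. Some genes and a list that fall under this rule are not reported here.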

Additional observations from a re-analysis of the deposited data

Results flagged for a closer look

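The difference between the crosses was unlike in XY and XX lines at 2 genes by limma's interaction term with Benjamini-Hochberg adjustment (adjusted p = 0.0404 for both). For *Atp6v0c-ps2* the log2 fold change of BC over CB was 8.92 in XY and 1.64 in XX lines, an interaction of 7.27, with 3 of 3 BC XY lines above every CB XY line. For *Cnn2* it was 0.02 in XY and 1.43 in XX lines, an interaction of −1.41. Fitted values of the former depend on the pseudocount, since its CB XY values lie within 3 steps of 0. Neither passed an FDR of 0.01, and with the feeder level as a covariate 0 negative interactions were called, so that *Cnn2* lost its call.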

How the results depend on the processing

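Of 89 named genes that were called, 0 reversed under any alternative. Leaving out lines could not reverse them, because the groups did not overlap at any called gene. With all 14 lines in 1 model 52 of the 89 lost their call. After GC correction 36 of those with a GC value did. The count of 388 genes, of which 18 were X-linked and 367 autosomal, stayed within 1.5 times under TMM, median-of-ratios, centred and quantile scaling, pseudocounts of 1 and 20, other filters, an untrended prior and genes at 0 kept. With all 14 lines in 1 model the counts were 111, 11 and 99. Without lines 2 and 3 labelled CB XY they were 59, 4 and 55, with the feeder level as a covariate 1182, 67 and 1108, after GC correction 65, 7 and 58, and at an FDR of 0.01 they were 110, 6 and 104. Leaving out 1 line gave 122 to 310, 6 to 14 and 114 to 294. The covariate was fitted with 3 residual degrees of freedom, and the cause of its higher count was not tested. Of all called genes, few were higher in BC XY under each scaling (38 of 388, 40 of 387 with TMM, 31 of 348 with quantiles).

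A replicate block gave 292 genes. The numbers are only names, since deviations of same-numbered lines correlated at 0.29, 0.02 and −0.23. The XX contrast gave 79 genes, 49 with the filter at 50, 1 with the feeder covariate, 0 at an FDR of 0.01 by limma (3451 at an unadjusted p under 0.05) and 0 to 827 when a line was left out. The interaction gave 2, 7 with the covariate (all positive), 0 at an FDR of 0.01 by limma (1342 unadjusted) and 0 to 18 without a line. The X median stayed between 0.05 and 0.28, and the chromosome 8 median of CB XY 1 between 0.28 and 0.33. Count models, planned as alternatives, were not run because the values are not whole reads throughout. Depth limits the CB XY lines most, where 3 steps reach 7.37.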
